A study of Homo sapiens with 6 samples.

Results

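The genes described here are 111 genes of protein processing in the endoplasmic reticulum (ER), measured in renal cancer cells with and without knockdown of the Y-box binding protein YB1. They are the rows of the deposited table that carry the KEGG pathway of ER protein processing and not the KEGG pathway of ubiquitin-mediated proteolysis. Heat shock proteins, DnaJ co-chaperones, translation initiation factors and their kinases, BCL2 family genes, a few stress genes and SEC13 were also set aside. Together with the genes of the ubiquitin pathway, 53 of the 164 pathway genes were left out. The table holds 20030 genes in all. Of the 111 members, 99 averaged 1 FPKM or more across the 6 libraries and were tested. The other 12 were not: 6, such as CRYAA, LMAN1L and SEL1L2, were listed at 0 in all 6 libraries, and CRYAB, DERL3, ERO1B, FBXO6, MAN1C1 and MAPK10 had means below 1 FPKM.

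The study examined YB1 in clear cell renal cell carcinoma, and RNA sequencing compared 786-O cells with and without its knockdown. 786-O is an established human line of that tumour, grown here at passages 16 to 18. In 3 libraries (shYB1) the cells stably expressed a short hairpin RNA against YB1, and in 3 libraries (vector) a scrambled hairpin. Both groups received lentivirus and puromycin, which selects the cells that took up the hairpin. The series text speaks of several hairpins against YB1, but the labels give 1 shYB1 group without naming a sequence, so the libraries could not be divided by hairpin. Whether the replicates came from separate cultures was not stated, so p-values measure the spread between these libraries, which may be technical. FPKM, the fragments of a gene scaled by its transcript length and by the mapped fragments of the library, is a level per length, and the number of reads behind a value is unknown.

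Secreted and membrane proteins enter the ER through the Sec61 channel, receive N-linked glycans from the oligosaccharyltransferase, and fold with the help of the lectins calnexin and calreticulin and of disulfide isomerases. Proteins that fold leave in COPII vesicles, and those that do not are drawn back into the cytosol and degraded, a route called ER-associated degradation. When unfolded proteins accumulate, the sensors IRE1 (ERN1), ATF6 and PERK (EIF2AK3) start the unfolded protein response, in which XBP1 and ATF6 act on promoters that hold the ER stress element. YB1 binds RNA and, in DNA, the Y-box, an inverted CCAAT sequence, which also forms one arm of the ER stress element.

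The sequences shown here are promoter windows around the ER stress element and its shorter variant. These elements were shown because they were rare among all promoters and stood in those of the 2 members that fell most, HERPUD1 and XBP1. They also stood in promoters of members that were not called. Promoters were taken from RefSeq (GRCh38.p14), from 250 bases before to 50 bases after each start, and 91 of the 111 members had one. The ER stress element was searched on both strands as CCAAT, any 9 bases, then CCACG, and the variant as ATTGG, any base, then CCACG. The first arm of the variant is the reverse complement of that of the element, so each match of either also holds the Y-box core. Capitals mark the 2 arms, and each window is read 5′ to 3′ on the strand of its gene.
XBP1: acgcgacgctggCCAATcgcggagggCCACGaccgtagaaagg
HERPUD1: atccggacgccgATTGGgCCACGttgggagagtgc
CALR: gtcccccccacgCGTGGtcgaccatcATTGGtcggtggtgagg
HYOU1: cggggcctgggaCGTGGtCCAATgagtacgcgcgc
The XBP1 window was chr22:28800591-28800633 on the minus strand, with the element 52 to 34 bases before the RefSeq start. The gene as GENCODE 29 gives it, 28794555 to 28800597, reached into the 3′ end of this window. The HERPUD1 window was chr16:56932013-56932047 on the plus strand, directly before the annotated gene (56932048 to 56944863). The CALR window was chr19:12938372-12938414 on the plus strand and the HYOU1 window chr11:119057262-119057296 on the minus strand. Both lay before their genes and held their element on the opposite strand. The HYOU1 promoter held the variant at 2 places, and the one nearer the start is shown.

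The ER stress element was found in 5 of the 91 member promoters (5.49%: CALR, CANX, ERO1B, PDIA6 and XBP1) and in 0.0916% of the 27305 genes of the promoter table. Its variant was found in 2 members (2.2%: HERPUD1 and HYOU1) and in 0.0696% of all genes. The element stood in 0 of 14 members that rose, 1 of 7 that fell, 3 of 62 not called and 1 of 8 not tested. For the variant these counts were 0 of 14, 1 of 7, 1 of 62 and 0 of 8. The holders not called had log2 fold changes of −0.074 (CALR), 0.097 (CANX), 0.043 (PDIA6) and 0.023 (HYOU1) with FPKM as deposited. The Y-box core, CCAAT on either strand, was common, in 50 of the 91 members (54.9%) and in 39.7% of all genes. By call, 7 of 14 members that rose, 6 of 7 that fell, 34 of 62 that were not called and 3 of 8 that were not tested held it. A gene counted if any of its promoters held the sequence. The 27305 genes were not matched to the members for expression or number of promoters. A match describes letters in this window and is not a binding site.

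YBX1, the gene that encodes YB1, had levels of 366, 373 and 378 FPKM in vector and of 167, 166 and 173 FPKM in shYB1 libraries. Its log2 fold change was −1.14 (SE 0.031, limma adjusted p = 1.53e-08, n = 3 per group), and an exact two-sided permutation test gave p = 0.1, the smallest that 3 libraries against 3 allow. All 8 markers of 786-O cells were present, with PAX8 at 75.6 to 78.7 FPKM and a summed level of 1879 to 1970 FPKM in vector and 1928 to 1963 FPKM in shYB1 libraries, most of it from VIM. In the same list CDH6 was at 47.6 to 48.4 FPKM in vector and 32.8 to 33.3 FPKM in shYB1 libraries, and EPAS1 at 83.2 to 85.3 and 78.8 to 81.0 FPKM, and their part in the results was not tested. Of 10 markers of leukocytes, endothelium and fibroblasts, CD68 was at 22.1 to 25.4 FPKM, and the others were at or under 0.41 FPKM, with CD3E, CDH5 and COL1A2 at 0. In bulk RNA, fewer cells that express a gene and less RNA per cell cannot be told apart.

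The members changed little and in both directions. Of the 99 tested, 17 were higher and 9 lower in shYB1 than in vector cells, and 73 were not called (limma, adjusted p under 0.05). These shares, 17.2% and 9.09%, stood beside 18.7% higher and 6.93% lower among all 10439 genes tested. The shares were not matched for level, and the members had a median of 24.3 FPKM against 7.31 FPKM over all genes tested. With a mean of at least 5 FPKM required, 17 members were higher and 11 lower, beside 1701 and 624 of 6547 genes. The split depended on how libraries were scaled. After median-of-ratios scaling, which sets the median gene of each library equal, 8 members were higher and 32 lower (8.08% and 32.3%), beside 11.2% and 12.2% of all genes. All 8 of these higher members were among the 17, and the 9 lower members were among the 32. The median log2 fold change of the members was 0.017 with FPKM as deposited and −0.039 after scaling, and that of all genes was 0.055 and −0.001. No tested member reached a 2-fold change in either direction. The largest was 0.59 on the log2 scale, and the median size over the 26 called members was 0.20, against 0.25 over all called genes.

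**Figure D1:**
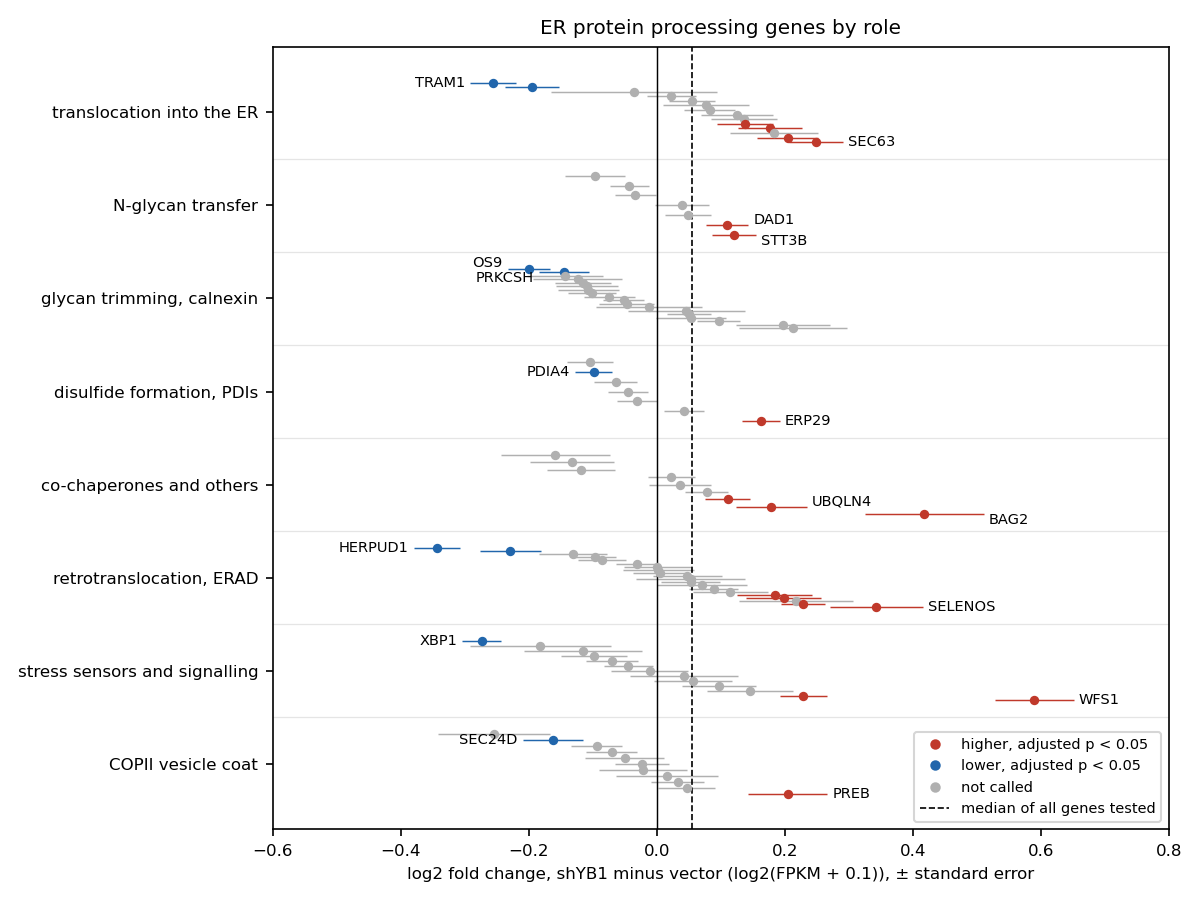
Log2 fold change (shYB1 minus vector, on log2(FPKM + 0.1)) of the 99 tested members in 8 role lists. Points are limma estimates with bars of 1 standard error, red for higher, blue for lower and grey for not called, and the dashed line is the median of all genes tested at 0.055. Called members lie on both sides of 0, from HERPUD1 at −0.34 to WFS1 at 0.59.

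Single libraries also moved the count of higher members. It was 10 without vector replicate 1, 10 without vector replicate 2, 9 without shYB1 replicate 2 and 11 without shYB1 replicate 3. The count over all genes fell in the same fits too, from 1956 to 1323, 1555, 1341 and 1544. The shYB1 and vector libraries did not overlap for 48 of the 99 members (48.5%), beside 42.6% of all genes. By direction these were 22 members above and 26 below, beside 3138 above and 1305 below of the 10439 genes tested. The summed level of the members was 4923 ± 129 FPKM in vector and 4893 ± 67.3 FPKM in shYB1 cells (mean ± SD, n = 3 each), a difference smaller than the spread. Calls that held in all alternative fits that tested the gene numbered 14 (BAG2, at under 5 FPKM, was in all but the one with the stricter filter). They were 8 higher members (WFS1, BAG2, SELENOS, SEC63, RAD23B, PPP1R15A, SEC62 and ERP29) and 6 lower members (HERPUD1, XBP1, TRAM1, UBXN6, OS9 and SSR2). The same count was not made over all genes tested, so these 14 have no background share beside them.

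**Figure D2:**
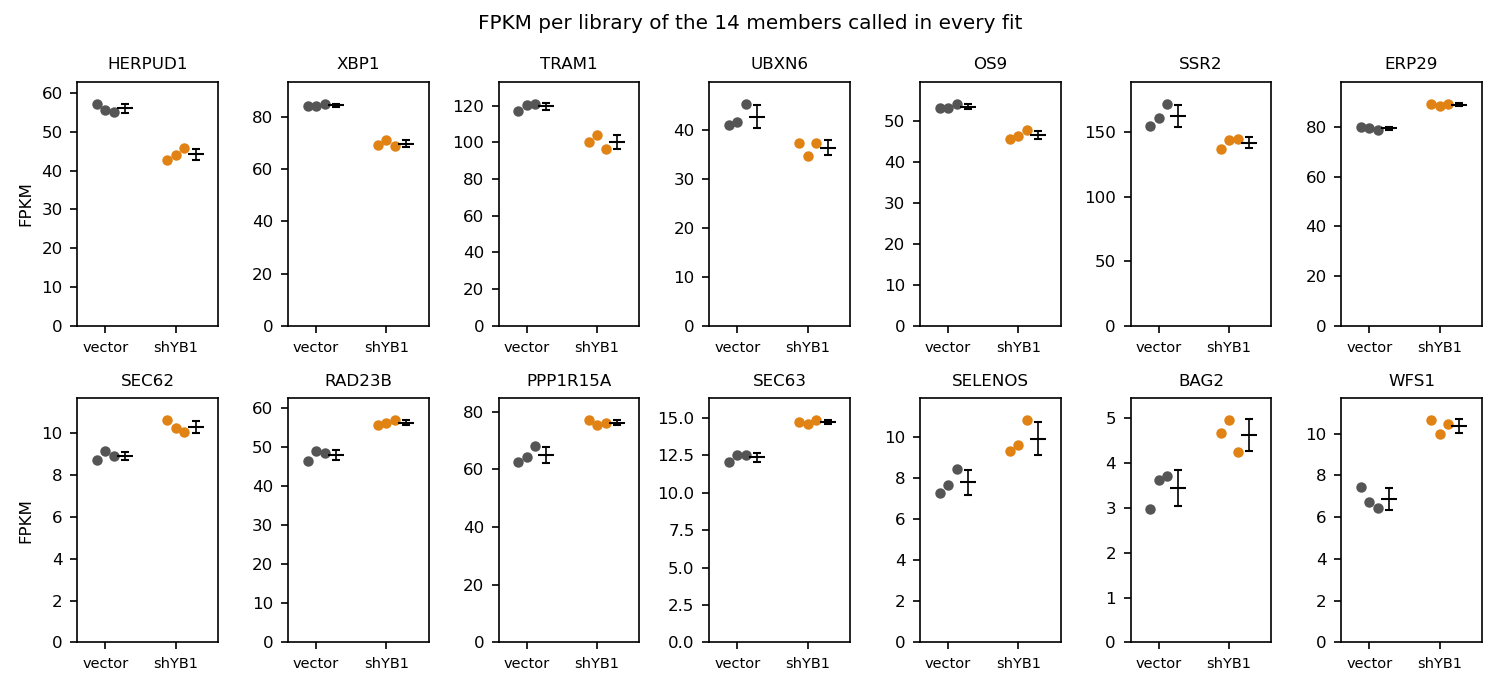
FPKM in each of the 3 vector (grey) and 3 shYB1 (orange) libraries for the 14 members called in all alternative fits, each panel with its own axis from 0. Black marks are the mean ± SD. In each panel the 2 groups do not overlap, with the first 6 genes lower and the other 8 higher in shYB1 cells.

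The sensors and signalling genes of the unfolded protein response held both the largest rise and one of the largest falls. Of 13 tested, 2 rose (WFS1 and PPP1R15A) and 1 fell (XBP1), and after median-of-ratios scaling 2 were higher and 3 lower. Beside the counts of this and each later role stand 18.7% higher and 6.93% lower among all genes as deposited. After scaling these shares were 11.2% and 12.2%. WFS1, an ER membrane protein whose loss causes Wolfram syndrome (chromosome 4, 6269849 to 6303265, GRCh38), was at 7.43, 6.73 and 6.44 FPKM in vector libraries and at 10.6, 9.98 and 10.5 FPKM in shYB1 libraries. Every shYB1 library lay above every vector library. The log2 fold change was 0.59 (SE 0.061, adjusted p = 0.00013), and over the alternative fits it ranged from 0.53 to 0.65. PPP1R15A (GADD34), which recruits a phosphatase that restores translation after stress, was at 62.6, 64.3 and 68.0 FPKM in vector and 77.0, 75.4 and 76.0 FPKM in shYB1 libraries. Here too the groups were apart, with a log2 fold change of 0.23 (SE 0.037, adjusted p = 0.0018).

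XBP1, the transcription factor activated when IRE1 splices its mRNA, was at 84.0, 84.1 and 85.1 FPKM in vector and at 69.2, 71.2 and 69.0 FPKM in shYB1 libraries. All 3 shYB1 values were below the vector values, and the log2 fold change was −0.27 (SE 0.031, adjusted p = 0.00019). A level per gene does not tell spliced from unspliced XBP1. The sensors themselves were not called. ERN1 was near the lower limit of the test, at 1.12 ± 0.078 FPKM in vector and 0.977 ± 0.089 in shYB1 cells (log2 fold change −0.18, 95% limma interval −0.43 to 0.062). ATF6 had a log2 fold change of 0.057 (−0.078 to 0.19) and its relative ATF6B one of −0.044 (−0.13 to 0.041). The stress kinases MAP3K5, MAP2K7, MAPK8 and MAPK9 and the site proteases MBTPS1 and MBTPS2 that cleave ATF6 were likewise not called, though MAP2K7 and MBTPS1 were lower after scaling (adjusted p = 0.043 and 0.047).

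Genes of the same pathway that the rule set aside gave context for these values. Of the 53 left out, 17 were picked by hand, and the rest were not summarised. Of these 17 genes, 3 were higher and 3 lower, beside 18.7% and 6.93% of all genes. After median-of-ratios scaling 2 were higher and 4 lower, beside 11.2% and 12.2%. The higher genes were DNAJC10 (log2 fold change 0.24, limma adjusted p = 0.0020), EIF2S1 (0.19, adjusted p = 0.0073) and UBE2J1 (0.19, adjusted p = 0.021). The call of UBE2J1 was lost after scaling (adjusted p = 0.066) and when any of 4 single libraries was left out (up to 0.078). The lower genes were HSPA5, ATF4 and NFE2L2. For NFE2L2 the log2 fold change was −0.12 (adjusted p = 0.041), and the call was lost when any of 5 libraries was left out (up to 0.14). HSPA5 (BiP), the main ER chaperone, fell from 200 ± 3.82 FPKM to 180 ± 3.98 FPKM (log2 fold change −0.15, adjusted p = 0.0059), with all shYB1 libraries below. HSP90B1 (GRP94) was at 253 ± 0.893 and 259 ± 2.42 FPKM, with a log2 fold change of 0.033 that became −0.024 after median-of-ratios scaling, and was called in neither. ATF4, the effector of PERK, fell by 0.11 on the log2 scale (adjusted p = 0.032), a call that was lost when any of 5 libraries was left out (adjusted p up to 0.12). DDIT3 (CHOP), a target of ATF4, was at −0.064, DNAJB9 (ERdj4), a target of XBP1, at −0.078, and EIF2AK3 at −0.061, and these 3 were not called. After median-of-ratios scaling DDIT3 was lower (−0.12, adjusted p = 0.016) and the other two were still not called.

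Of 20 tested genes of retrotranslocation and degradation, 4 rose and 2 fell, and after median-of-ratios scaling 2 were higher and 5 lower. HERPUD1, an ER membrane protein of the HRD1 ubiquitin ligase complex, fell more than any other tested member. It was at 57.2, 55.7 and 55.2 FPKM in vector and at 42.8, 43.9 and 45.7 FPKM in shYB1 libraries. The groups were far apart relative to their spread, and the log2 fold change was −0.34 (SE 0.036, adjusted p = 0.00014), or 21.2% lower. UBXN6, an adaptor of the p97 segregase, fell from 42.6 ± 2.31 to 36.4 ± 1.54 FPKM (log2 fold change −0.23, SE 0.048, adjusted p = 0.0065).

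SELENOS, which links derlins in the membrane to p97 (chromosome 15, 101270817 to 101277500), was at 7.25, 7.65 and 8.45 FPKM in vector and at 9.31, 9.58 and 10.8 FPKM in shYB1 libraries. The lowest shYB1 value was above the highest vector value, and the log2 fold change was 0.34 (SE 0.073, adjusted p = 0.0072). RAD23B, a shuttle that brings ubiquitinated proteins to the proteasome, rose from 48.0 ± 1.32 to 56.2 ± 0.651 FPKM (log2 fold change 0.23, adjusted p = 0.0012). The p97 gene VCP was at 55.3 ± 1.37 and 51.7 ± 0.742 FPKM (log2 fold change −0.097, adjusted p = 0.059) and was not called, but was lower after median-of-ratios scaling (−0.15, adjusted p = 0.0059). The p97 cofactors UFD1 (0.20) and NSFL1C (0.18) were higher with FPKM as deposited, and neither call held after median-of-ratios scaling (adjusted p = 0.12 and 0.13). Each was also lost without single libraries of both groups, at an adjusted p of up to 0.10 for UFD1 and 0.13 for NSFL1C.

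In translocation into the ER, 11 of 14 tested genes (78.6%) had a fold change above 0, beside 64.1% of all genes tested, and after median-of-ratios scaling 9 of 14 (64.3%) did, beside 49.9%. In the other roles the share above 0 was 57.1% (oligosaccharyltransferase), 33.3% (glycan trimming), 28.6% (disulfide formation), 66.7% (co-chaperones), 70% (degradation), 46.2% (sensors) and 36.4% (COPII). After scaling these shares were, in the same order, 28.6%, 16.7%, 14.3%, 44.4%, 40%, 38.5% and 9.09%. The translocation genes had a median of 0.10 on the log2 scale (0.047 after scaling). There 4 genes rose (SEC63, SEC62, SSR3 and SEC61B) and 2 fell (TRAM1 and SSR2), and after median-of-ratios scaling 2 were higher and 2 lower. SEC63, which couples the channel to the chaperone BiP (chromosome 6, 107867756 to 107958189), was at 12.03, 12.54 and 12.53 FPKM in vector and at 14.73, 14.56 and 14.85 FPKM in shYB1 libraries. The increase was 0.25 on the log2 scale (SE 0.042, adjusted p = 0.0023). SEC62, its partner at the channel, rose from 8.93 ± 0.194 to 10.3 ± 0.295 FPKM (log2 fold change 0.20, SE 0.048, adjusted p = 0.011). Both genes were separated between the groups in every library.

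TRAM1, a membrane protein beside the channel, went the other way. It was at 117, 120 and 121 FPKM in vector and 100, 104 and 96.3 FPKM in shYB1 libraries, with a log2 fold change of −0.26 (SE 0.036, adjusted p = 0.00081). The 4 subunits of the translocon-associated protein complex did not move together. SSR2 fell from 163 ± 8.61 to 142 ± 4.39 FPKM (log2 fold change −0.20, adjusted p = 0.0077), SSR3 was higher (0.18, adjusted p = 0.027), and SSR1 (0.14) and SSR4 (0.077) were not called. Of the Sec61 subunits, SEC61B was higher (0.14, adjusted p = 0.040), and SEC61A1 (0.083) and SEC61G, the gene of this role with the highest level at 199 FPKM, were not called. For SEC61G the log2 fold change was 0.18 (95% interval 0.027 to 0.34, adjusted p = 0.082) and the groups overlapped. The calls of SSR3 and SEC61B were lost after median-of-ratios scaling (adjusted p = 0.088 and 0.19) and without single libraries of both groups (up to 0.091 and 0.14).

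The oligosaccharyltransferase genes were abundant, and their log2 fold changes lay between −0.097 and 0.12. DAD1 was at 219, 218 and 222 FPKM in vector and at 232, 233 and 246 FPKM in shYB1 libraries, and STT3B, a catalytic subunit, was at 30.9 ± 0.523 and 33.6 ± 0.127 FPKM. They were the 2 of 7 genes called, both higher (0.11 and 0.12 on the log2 scale, adjusted p = 0.032 and 0.026). Neither call held after scaling, where 0 of the 7 were higher and 3 lower, and each was lost when any of 5 single libraries was left out (adjusted p up to 0.12 for DAD1 and 0.085 for STT3B). DDOST, the other most abundant subunit, was not called (−0.034, 95% interval −0.10 to 0.037) except after median-of-ratios scaling (−0.091, adjusted p = 0.041).

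In glycan trimming and the calnexin cycle no tested gene was called higher under either scaling. Of 18 tested genes, 2 fell and 16 were not called, beside 6.93% lower among all genes. After median-of-ratios scaling 9 were lower and 0 higher, beside 12.2% lower and 11.2% higher among all genes. OS9, a lectin that hands misfolded glycoproteins to degradation, was at 53.1, 53.0 and 54.2 FPKM in vector and at 45.7, 46.2 and 47.7 FPKM in shYB1 libraries. The log2 fold change was −0.20 (SE 0.033, adjusted p = 0.0020). PRKCSH, the beta subunit of glucosidase II, fell from 104 ± 4.69 to 94.4 ± 2.56 FPKM (−0.14, adjusted p = 0.022), and the call was lost without shYB1 replicate 1 (0.084) or 2 (0.054). Its catalytic partner GANAB was at −0.052 (adjusted p = 0.25) and passed the test only after median-of-ratios scaling and in 1 other fit. CALR, which encodes calreticulin and had the highest level of all members (389 FPKM), was at −0.074 (95% interval −0.16 to 0.014) and was called only after median-of-ratios scaling (−0.13, adjusted p = 0.021) and scaling to a common total. CANX, which encodes calnexin, stood on the other side of 0, at 0.097 (0.022 to 0.17, adjusted p = 0.059).

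Disulfide formation gave 1 gene in each direction among 7 tested, and 1 higher and 5 lower after scaling. ERP29, a chaperone of the disulfide isomerase family without isomerase activity, was at 79.9, 79.7 and 78.8 FPKM in vector and at 89.3, 88.4 and 89.4 FPKM in shYB1 libraries. The replicates differed by about 1 FPKM, and the log2 fold change was 0.16 (SE 0.029, adjusted p = 0.0031). PDIA4 fell from 101 ± 0.561 to 94.3 ± 0.597 FPKM (−0.099, adjusted p = 0.030), and the call was lost when any of 5 single libraries was left out (adjusted p up to 0.093). P4HB, the most abundant isomerase at 376 FPKM, was at −0.064 (95% interval −0.14 to 0.012), and PDIA3, the partner of calnexin and calreticulin, at −0.045 (−0.12 to 0.025). Neither was called with FPKM as deposited, and both were lower after median-of-ratios scaling (−0.12 and −0.10, adjusted p = 0.013 and 0.026).

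Among the co-chaperones and other folding factors, 3 of 9 tested genes rose and 0 fell, and after scaling 1 was higher and 1 lower. BAG2, which releases client proteins from Hsp70 (chromosome 6, 57172326 to 57189833), was at 2.99, 3.63 and 3.72 FPKM in vector and at 4.67, 4.96 and 4.25 FPKM in shYB1 libraries. The groups did not overlap, and the log2 fold change was 0.42 (SE 0.093, adjusted p = 0.0091). UBQLN4 (0.18, adjusted p = 0.037) and UBQLN1 (0.11, 0.039), ubiquitin receptors of the proteasome, were higher with FPKM as deposited. After median-of-ratios scaling neither was called (adjusted p = 0.13 and 0.29), and both calls were lost without single libraries (up to 0.12 for UBQLN4 in 5 of 6 such fits and up to 0.13 for UBQLN1 in 6 of 6). The calpains CAPN2 (0.078) and CAPN1 (−0.12) were not called, and CAPN1 was lower after median-of-ratios scaling (−0.18, adjusted p = 0.026). HYOU1, the chaperone whose promoter window is printed above, was at 34.2 ± 1.11 and 34.7 ± 0.376 FPKM (log2 fold change 0.023, 95% interval −0.059 to 0.10).

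The COPII coat, which buds vesicles from the ER, gave 1 gene in each direction among 11 tested, and 0 higher and 4 lower after scaling. PREB (SEC12), which loads SAR1 with GTP to start the coat, was at 14.75, 13.97 and 13.56 FPKM in vector and at 14.98, 16.15 and 17.71 FPKM in shYB1 libraries. The lowest shYB1 library was close to the highest vector library, and the call (0.20, adjusted p = 0.035) was lost after scaling (0.13) and without vector replicate 2 or 3 or shYB1 replicate 2 or 3 (up to 0.11). SEC24D, a subunit that selects cargo, fell from 14.9 ± 0.647 to 13.3 ± 0.283 FPKM (−0.16, adjusted p = 0.028), a call lost without vector replicate 3 or shYB1 replicate 1 or 3 (up to 0.086). SAR1A and SEC23A, the most abundant genes of the coat list, were at −0.094 and −0.023 and were not called, and SAR1A was lower after median-of-ratios scaling (−0.15, adjusted p = 0.014).

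**Figure D3:**
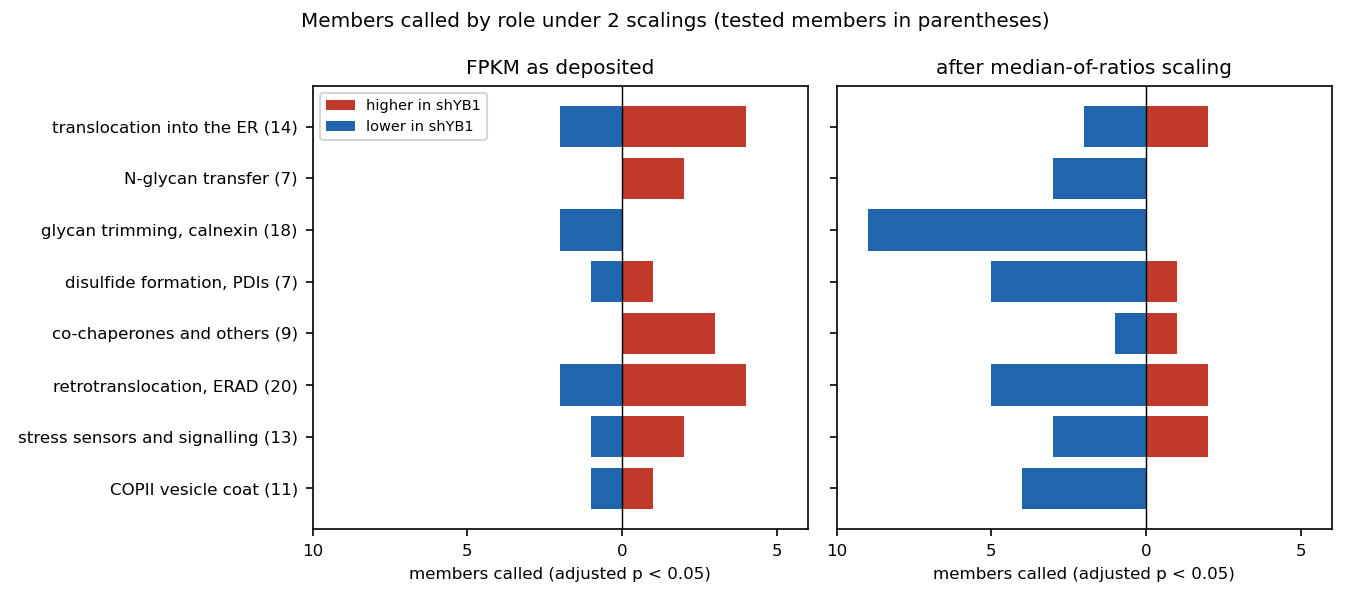
Number of tested members called higher (red, right of 0) or lower (blue, left of 0) in shYB1 cells for each role list, with FPKM as deposited (left panel) and after median-of-ratios scaling (right panel). With scaling the counts went from 17 higher and 9 lower to 8 and 32 in all. Here 9 higher calls were lost and 23 members not called before became lower. The glycan trimming list had 0 higher genes under both. Among all genes tested, 18.7% were higher and 6.93% lower as deposited, and 11.2% and 12.2% after scaling.

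The roles also differed in level, which FPKM allows to be set side by side as a level per transcript length. Median levels over the tested genes of a role were 106 FPKM for disulfide formation and 98.5 FPKM for the oligosaccharyltransferase, and at the other end 9.45 FPKM for sensors and signalling and 10.2 FPKM for co-chaperones and others. Over all 99 tested members the median was 24.3 FPKM, against 7.31 FPKM over all genes tested. Members that rose included both abundant genes such as DAD1 and genes of low level such as BAG2. All 9 that fell with FPKM as deposited had a mean above 10 FPKM. After median-of-ratios scaling members below that level were also lower, such as SEC31B at 2.72 FPKM and ERLEC1 at 6.07 FPKM.

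**Figure D4:**
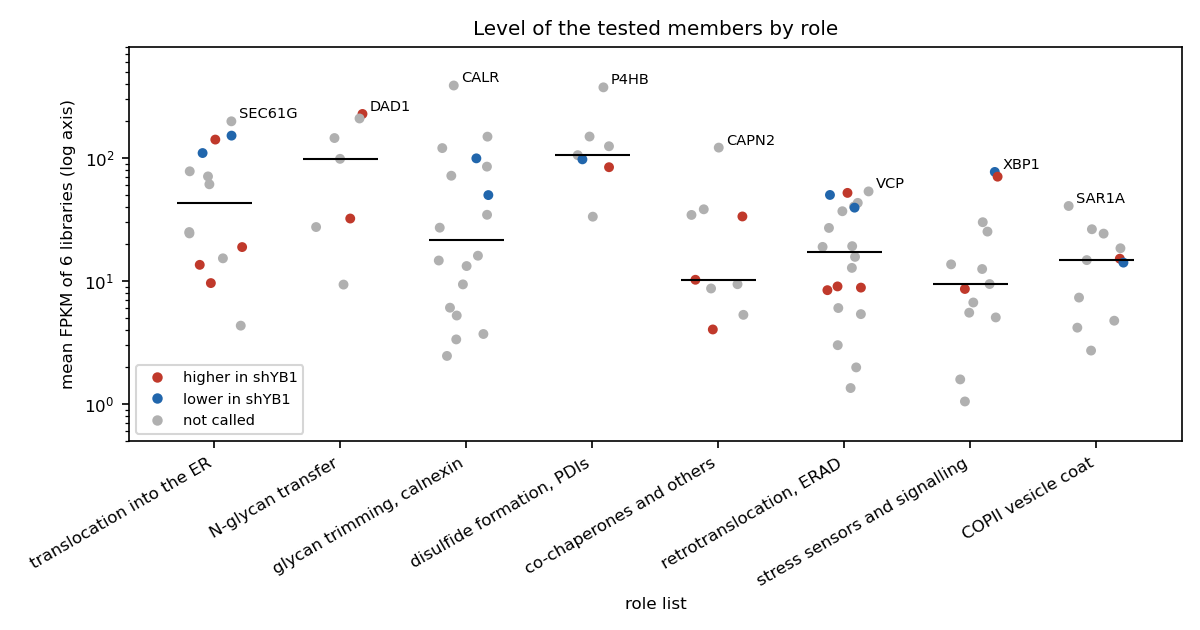
Mean FPKM over the 6 libraries (log axis) of each tested member, by role list, coloured by call, with a black line at the median of each list and the most abundant gene named. CALR at 389 FPKM and P4HB at 376 FPKM stand highest, and neither was called with FPKM as deposited, while both were lower after median-of-ratios scaling.

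Some members share sequence with other annotated genes, and their values are less certain. Of the 26 called members, UBQLN4 shared 24.8% of its 50-base words with a copy on the same strand, UBQLN4P1. On the opposite strand BAG2 shared 43.6% with RAB23 and other genes, UBXN6 22.5%, ERP29 16.4% and OS9 10.2%, and whether reads were counted by strand was not stated. Of the genes not called, TXNDC5 shared 60.3% with a read-through transcript of its own locus and PDIA3 shared 15.3% with its pseudogenes.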

How the data were processed

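RNA of 6 libraries of 786-O cells, 3 vector and 3 shYB1, was sequenced. The authors deposited FPKM per gene. Their processing notes name GRCh38, Trimmomatic, HISAT2, Cufflinks, HTSeq and DESeq, without versions or roles. The table held no counts, so depth is unknown. The commonest ratio of low values between libraries gave relative depths of 0.98 to 1.09 times shYB1 replicate 1. Outside that library the commonest ratio covered only 2.48% to 12.6% of the genes compared, so these depths are uncertain. FPKM totals ranged from 282736 to 295887 per library.

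Groups followed the labels. Over the 10439 genes averaging 1 FPKM or more, log2(FPKM + 0.1) was compared with limma 3.58.1 (R 4.3.3; expression trend, robust prior), in two-sided tests; p-values were adjusted by Benjamini-Hochberg across the tested genes, with calls at 0.05. Fold changes on this scale understate changes of low genes. The model was tested on simulated data. In each role list the 3 called members with the largest change and the 2 most abundant were named, with YBX1, the sensors, XBP1 and 6 pathway genes outside the rule. Other genes named (such as SSR, SEC61 and p97 cofactor genes, HYOU1, CANX and DNAJC10) were chosen after their values were seen. The members and lists were chosen with earlier results of these data known. Alternatives changed the pseudocount, filter, scaling, variance prior, replicate block or left out 1 library. Positions came from GENCODE 29 and promoters from RefSeq. Protein sequences were not used here.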

Additional observations from a re-analysis of the deposited data

How the results depend on the processing

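Scaling moved the lower members most, and the higher members also moved under other alternatives. The 17 higher members became 8 after median-of-ratios scaling and 9 to 16 without 1 library. They became 9 without a filter on low values and 9 with a variance prior without trend. In these last 2 fits all genes had 1582 (of 15988 tested) and 1666 higher, and 1323 to 1944 without 1 library. The 9 lower members became 32 after median-of-ratios scaling and 26 after quantile normalization, and 6 to 10 without 1 library. Among all genes, 1184 were lower after quantile normalization and 513 to 606 without 1 library. Among all genes, 1956 higher and 723 lower became 1171 and 1273 after median-of-ratios scaling. The share of higher calls went from 65.4% to 20% for members and from 73.0% to 47.9% for all genes. The member median of 0.017 became −0.039 after median-of-ratios scaling and −0.025 after quantile normalization, and ranged from −9.8e-05 to 0.032 without 1 library. YBX1 stayed between −1.16 and −1.13 without 1 library. Of 627 values of named genes under alternatives, 533 kept direction and side of the threshold, 65 lost the call, 26 gained one and 3 changed sign, none of them a called gene: ATF6 (−0.0031 after quantile normalization), HSP90B1 (−0.024 after median-of-ratios scaling) and SEC23A (−0.047 to 0.012 without 1 library, above 0 without shYB1 replicate 3). The cause of these changes was not tested. Deviations of same-numbered libraries correlated at −0.17, −0.059 and −0.0082, and those of differently numbered ones at −0.051 to 0.11. With 3 libraries per group these values cannot decide whether the numbers pair the libraries. A replicate block gave 19 higher and 12 lower members, beside 2074 and 760 of all genes. Of the members, 6 were called only with the block and 1 only without it. Unknown depth limits what low members can show.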

Other observations

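ER genes outside the member list, 31 of them tested, gave 3 higher and 3 lower calls with FPKM as deposited (9.68% each, beside 18.7% and 6.93% of all genes), and 2 higher and 5 lower after median-of-ratios scaling (6.45% and 16.1%, beside 11.2% and 12.2%). The signal recognition particle brings ribosomes to the ER. Its subunit SRP9 was at 109, 111 and 112 FPKM in vector and at 127, 132 and 127 FPKM in shYB1 libraries (log2 fold change 0.22, limma adjusted p = 0.00082), with all shYB1 libraries above. SRPRB, a subunit of its receptor, was also higher (0.22, adjusted p = 0.012), and SRP19 was higher at a level of 2.10 ± 0.137 FPKM in vector cells (0.27, adjusted p = 0.033), a call lost after median-of-ratios scaling (0.082) and when any of 5 single libraries was left out (up to 0.094). SRP14, SRP54, SRP68, SRP72 and SRPRA were not called with FPKM as deposited, and SRP14 was lower after median-of-ratios scaling (−0.12, adjusted p = 0.049).

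SPCS2, a subunit of the signal peptidase that trims imported proteins, fell from 21.8 ± 1.14 to 18.9 ± 0.451 FPKM (log2 fold change −0.20, adjusted p = 0.011). The other subunits measured, SPCS1, SPCS3, SEC11A and SEC11C, were not called. TMED10, a cargo receptor of early secretory vesicles, fell by 0.15 on the log2 scale (adjusted p = 0.017), a call lost without shYB1 replicate 2 or 3 (adjusted p up to 0.064). KDELR2, which returns ER proteins from the Golgi, fell by 0.13 (adjusted p = 0.031), and its call was lost without vector replicate 2 or 3 or shYB1 replicate 1 or 3 (adjusted p up to 0.11). Its relatives KDELR1 (−0.026) and KDELR3 (0.043) were not called.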
